A study of Mus musculus with 16 samples.

Results

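Chemokines and their receptors were measured by islet RNA-seq in the 8 strains that founded the diversity outbred mouse population. The members were chosen by name: every gene whose symbol in the deposited tables is Ccl, Cxcl, Xcl, Cx3cl, Ccr, Cxcr, Xcr, Cx3cr or Ackr followed by a number and at most 1 letter. This gave 61 genes under 60 names of the 54146 genes listed, since the name Ccl21b stands for a pair of entries. The 61 entries comprise 39 ligands, 18 signalling receptors and 4 atypical receptors.

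Chemokines are small secreted proteins that draw leukocytes along a gradient by binding receptors of the G-protein-coupled family. The CC, CXC, XC and CX3C classes are named for the spacing of their first cysteines. Inflammatory chemokines are induced by cytokines at sites of injury, homeostatic ones direct lymphocytes through lymphoid tissue, and the atypical receptors bind chemokines without signalling through G proteins. In pancreatic islets, the ligands of Cxcr3 are known to be made by beta cells exposed to interferon, and the non-obese diabetic (NOD) mouse, which develops autoimmune diabetes, is known for leukocyte infiltration of its islets.

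Whole-islet total RNA came from mice of 26 weeks, and both sexes of each strain were kept on a high-fat diet, so no group had a standard diet. The strains were 129S1_SvImJ (129, n = 10 libraries), A_J (AJ, n = 14), C57BL/6J (B6, n = 18) and CAST_EiJ (CAST, n = 14). The others were NOD_ShiLtJ (NOD, n = 10), NZO_HlLtJ (NZO, n = 4), PWK_PhJ (PWK, n = 5) and WSB_EiJ (WSB, n = 16). Each of the 16 samples holds the libraries of 1 strain and 1 sex. The labels do not state that each library is a different mouse, so the p-values measure the spread between these libraries.

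Each library held between 16928552 and 35196145 expected counts in total, and the 61 members took 0.0043 to 0.221% of them. The sex-linked genes went against the sex label in 12 libraries, namely 6 from 129, 2 from NOD and 4 from WSB. The 2 in NOD are NOD_97, labelled male, and NOD_100, labelled female. Library numbers of 129, NOD, NZO and PWK run from 66 to 100 and those of AJ, B6, CAST and WSB from 1 to 65. The number range and these sets of strains therefore cannot be told apart. Within 66 to 100 each strain has its own run: PWK 66 to 75, 129 76 to 85, NZO 86 to 90 and NOD 91 to 100. Strain and library number cannot be told apart there either. AJ, B6, CAST and WSB each have libraries both in 1 to 32 and in 34 to 65. The labels describe 4 waves of animals but do not tie libraries to them. The beta cell markers Ins1, Ins2, Iapp, Slc30a8 and Nkx6-1 summed to 166000 TPM or more in every library. Islet cells other than beta cells, exocrine cells, vessels and leukocytes are all part of such bulk samples, in which fewer cells of a type and less RNA per cell cannot be told apart.

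Expression of the family was highest in NOD. Of the 61 members, 45 had their highest strain mean in NOD, on TPM (a per-length unit of transcript share) and on normalized counts alike. The share of all genes with this pattern was not counted, so the 45 are a description only. They include members near 0, such as Cxcl15, which among the NOD libraries had counts in NOD_99 alone (40 counts). All members together summed to 134 to 2740 TPM in the 10 NOD libraries (median 694) and to 31.2 to 409 TPM in the 81 other libraries (median 94.1). The largest NOD differences among members that passed the expression filter were those of Cxcl9, Ccl5, Ccr7, Ccr1 and Ccl19. Ligands that drew the strains apart in another way were Ccl27a, which was low in AJ, Ccl28, which was low in WSB, and Cx3cl1, which was high in 129 and AJ.

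The expression filter was rebuilt from the study's methods: protein-coding genes detected in 85% of libraries or more and above the lowest 10% of variance. It does not keep exactly the genes that the study kept, and is called the study's filter only for its steps. It kept 36 members among 15204 genes. Another 11 members passed a wider filter of protein-coding genes with at least 10 counts in at least 4 libraries, which kept 16140 genes. The other 14 passed neither, Cxcl11 among them for its annotated type. All 36 were also detected in 85% or more of the 81 libraries outside NOD. Of the 11, however, 4 met the wider filter only through counts in NOD libraries, namely Ccl17, Xcl1, Ccr4 and Ccr8, and these are described by their levels with no test of NOD. The counts below are read against the share of all genes called. All 36 members differed between strains, beside 97.4% of all genes (quasi-likelihood test of edgeR with p adjusted over all genes after Benjamini and Hochberg). Relative to the mean of the other 7 strains, 29 of the 36 were higher in NOD, beside 35.8% of all genes, and 3 were lower, beside 29.5%. The median log2 fold change in NOD was 2.52 over these members and 0.026 over all genes. Higher in NOD than in each of the other 7 strains, here called selective for NOD, were 18 members, beside 11.3% of all genes. Without the 12 libraries that went against their sex label, 28 members were higher in NOD, beside 32.4% of all genes, and 3 lower, beside 22.8%.

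**Figure D1:**
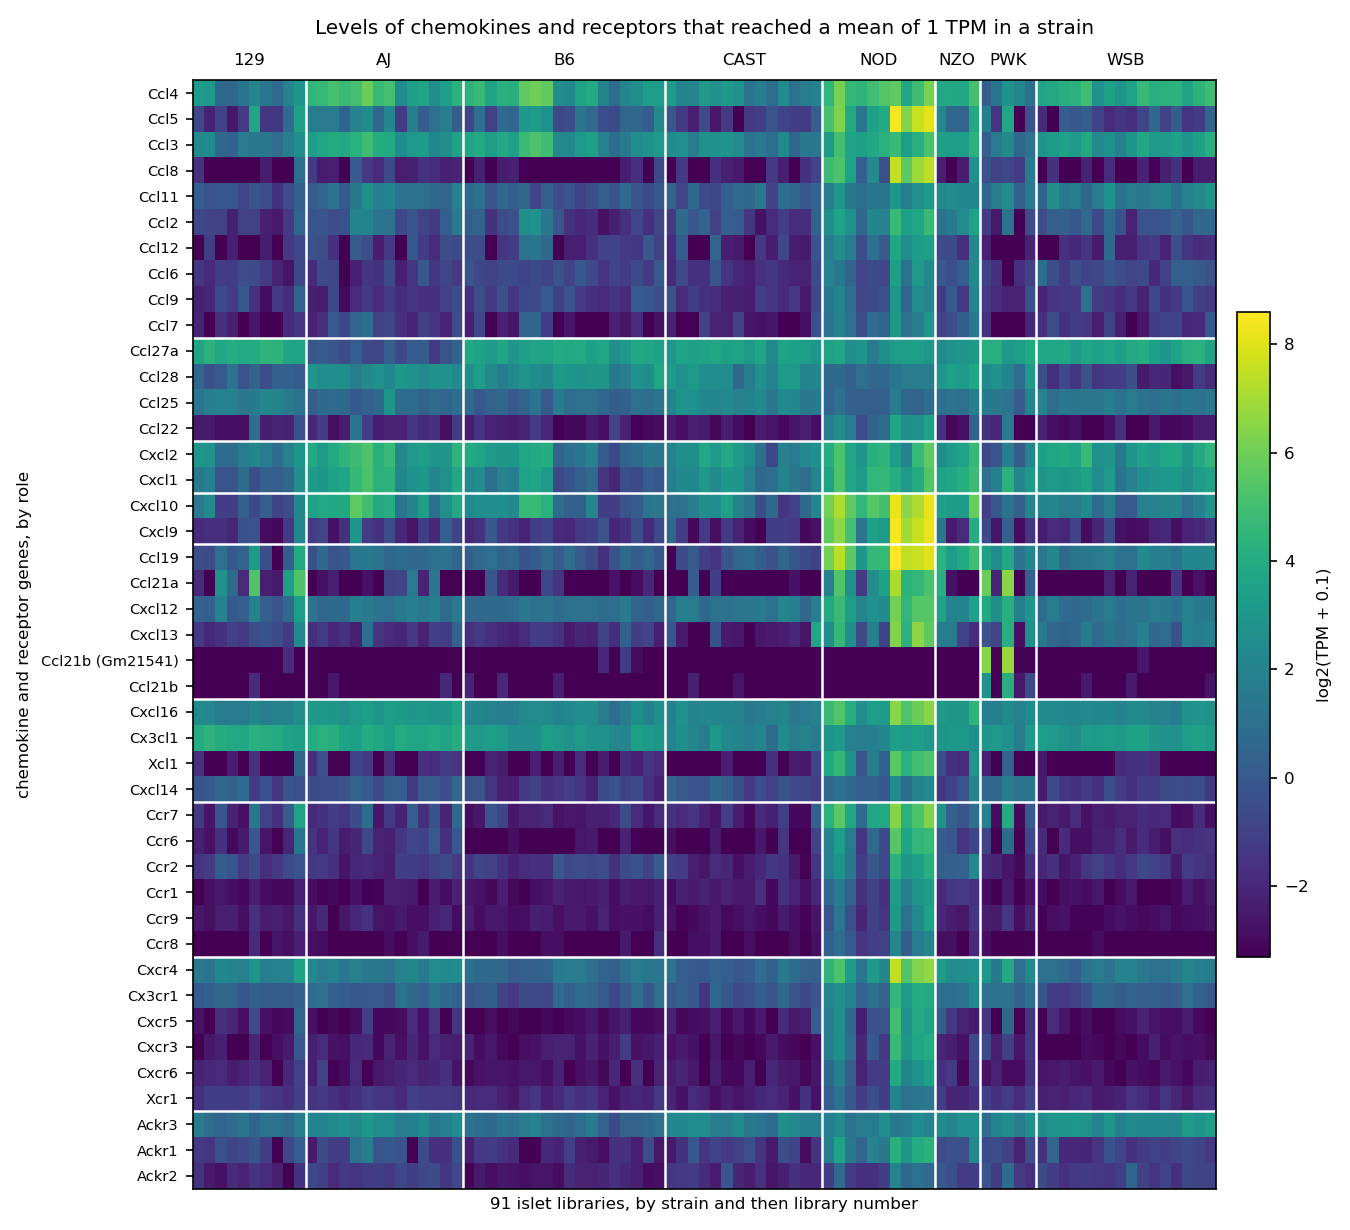
Heat map of log2(TPM + 0.1) for 43 of the 44 members with a mean of at least 1 TPM in some strain (vertical axis, by role), in the 91 islet libraries (horizontal axis, by strain and library number). The NOD block is the brightest for most of the genes, with 1 darker column at NOD_94, and single bright columns stand in 129, NZO and PWK.

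Inflammatory CC ligands, which attract monocytes, T cells and eosinophils, were the largest group of ligands. It has 11 members, of which 7 were tested and all 7 were higher in NOD, with a median log2 fold change of 2.46. Summed over the group, NOD libraries ranged from 41.7 to 699 TPM and the other libraries from 4.55 to 123 TPM. Ccl5, which attracts T cells, ranged from 2.46 to 362.55 TPM in NOD (median 56.6) and from 0 to 14.81 TPM elsewhere (median 0.84). NOD_97 was highest and NOD_94 lowest, and 8 of the 10 NOD libraries lay above the highest other library, NZO_90. The log2 fold change of Ccl5 was 5.71 (SE 0.39, adjusted p = 1.7e-23, edgeR's quasi-likelihood test), and 4.95 without the libraries that went against their sex label. Ccl5 was selective for NOD, with a fitted log2 difference of 4.1 from NZO, the nearest strain (SE 0.93, adjusted p = 0.000158, edgeR), and of 4.86 (SE 1.11) without NZO_90.

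Ccl9 was also selective for NOD, a call lost without NZO_86 (adjusted p = 0.0596 against NZO, edgeR). It ranged from 0.49 to 7.79 TPM in NOD (median 2.3) and from 0.02 to 4.37 TPM elsewhere (median 0.3), a log2 fold change of 2.46 (SE 0.22, adjusted p = 3.28e-17, edgeR). The groups overlapped, and 2 NOD libraries lay above NZO_90, the highest of the others. Ccl6, its neighbour on chromosome 11, ranged from 0.46 to 10.9 TPM in NOD and reached 4.75 TPM in NZO_90, with a log2 fold change of 2.74 (SE 0.24). Ccl2, the main monocyte attractant acting on Ccr2, ranged from 1.55 to 26.75 TPM in NOD (median 8.62) and from 0 to 11.15 TPM elsewhere, with a log2 fold change of 3.23 (SE 0.33). Both overlapped the other strains, and both were highest outside NOD in NZO_90.

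Ccl3 and Ccl4, ligands made by macrophages, showed another pattern, since several strains reached NOD levels. Ccl3 had means of 18.7 TPM ± 9.74 in NOD (SD, n = 10), 12.8 ± 6.55 in AJ (n = 14), 12.2 ± 10.2 in B6 (n = 18), 12.7 ± 4.73 in NZO (n = 4) and 2.55 ± 1.54 in PWK (n = 5). The highest library was B6_23, at 38.79 TPM, above all NOD libraries. The AJ and B6 means pool 2 blocks of library numbers. Counts of Ccl3 were 116 to 632 in B6_17 to B6_24 and 30 to 168 in B6_49 to B6_58. In AJ they were 160 to 478 in AJ_25 to AJ_32 and 78 to 145 in AJ_59 to AJ_65. The cause of these differences was not tested. Ccl4 reached 73.28 TPM in NOD_100 and 62.69 TPM in B6_23. Their log2 fold changes in NOD were 1.45 (SE 0.22) and 1.92 (SE 0.26), and neither was selective for NOD. Ccl11, the eosinophil attractant, had means of 4.75 TPM in NZO, 4.59 ± 2.62 in NOD and 0.736 in 129. It was lower in 129 than in each other strain, beside 0.927% of all genes, with a smallest log2 difference of 0.78 (adjusted p = 0.0269 against B6, edgeR).

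Outside the study's filter, Ccl8, Ccl12 and Ccl7 were tested with the wider one, in which 37% of all genes were higher in NOD. All 3, monocyte attractants encoded beside Ccl2, were higher in NOD. Ccl8 ranged from 0.66 to 182.64 TPM in NOD (median 34.1) and from 0 to 6.21 TPM elsewhere, with no count in 35 of the 81 other libraries. Its log2 fold change was 7.49 (SE 0.40, adjusted p = 2.53e-30, edgeR), and the groups overlapped through 3 NOD libraries. For Ccl12 the log2 fold change was 3.90 (NOD mean 5.49 TPM ± 4.41) and for Ccl7 it was 3.65 (NOD mean 3.31 TPM ± 2.63). Ccl24, the last of the group, passed neither filter and reached 1.61 TPM in NOD_97.

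The interferon-inducible ligands Cxcl9, Cxcl10 and Cxcl11 bind Cxcr3 on activated T cells and lie together on chromosome 5. Both members that were tested were higher in NOD, with a median log2 fold change of 6.12, the highest of any role. Cxcl9 ranged from 2.46 to 350.16 TPM in NOD (median 74.2) and from 0 to 16.52 TPM elsewhere (median 0.21). Of the 10 NOD libraries, 7 lay above NZO_90, the highest of the others, and NOD_94 was the lowest. Its log2 fold change of 7.75 (SE 0.39, adjusted p = 9.37e-32, edgeR) was the largest of all tested members. It was 7.11 without the libraries that went against their sex label. Cxcl9 was selective for NOD, and NZO was the nearest strain, with a fitted log2 difference of 4.67 (SE 0.87, adjusted p = 6.51e-06, edgeR). That difference was 6.32 (SE 1.08) without NZO_90.

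Cxcl10 ranged from 23.36 to 291.67 TPM in NOD (median 80.5) and from 0.25 to 57.63 TPM elsewhere (median 3.56), with a log2 fold change of 4.49 (SE 0.33, adjusted p = 1.1e-21, edgeR). It was selective for NOD, though the libraries overlapped: 6 of the NOD libraries lay above NZO_90, and AJ_29 reached 50.59 TPM. Outside NOD its mean was 21.7 TPM in NZO (8.99 to 57.63 TPM, n = 4), 14.8 ± 12.6 in AJ (SD, n = 14) and 1.65 ± 1.75 in 129 (n = 10). Counts of Cxcl10 were 247 to 1299 in AJ_25 to AJ_32 and 46 to 205 in AJ_59 to AJ_65. They were 98 to 610 in B6_17 to B6_24 and 7 to 82 in B6_49 to B6_58. Cxcl11 was not tested, because it is annotated as a polymorphic pseudogene and both filters kept protein-coding genes only. It held 10 counts or more in 6 NOD libraries and 1 other. It ranged from 0 to 3.04 TPM in NOD and from 0 to 0.29 TPM elsewhere.

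Interferon-stimulated response elements (ISRE) are bound by interferon-activated factors, and the promoter of Cxcl10 is known to hold them. The letters GAAANNGAAA were searched on both strands in the 250 bases before each start of the RefSeq promoter table (GRCm38.p6), which held 45 of the 60 member names. They were found in 2.98% of 32851 promoters and in those of 3 members, Ccl19, Cxcl10 and Cxcl14. A match is a description of the letters and not evidence of binding. The stretch of Ccl19 is not shown, because 49 bases of its window lie within the annotated gene. A stretch of the Cxcl10 promoter (chr5:92349058-92349137, minus strand) and one of the Cxcl14 promoter (chr13:56296679-56296758, minus strand) are shown with the element in capitals:
Cxcl10: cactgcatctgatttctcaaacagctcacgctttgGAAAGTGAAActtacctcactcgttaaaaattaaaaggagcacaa
Cxcl14: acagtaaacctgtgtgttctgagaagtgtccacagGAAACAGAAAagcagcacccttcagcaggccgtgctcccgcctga
Between the end of the element and the start lie 203 bases in Cxcl10 and 162 bases in Cxcl14. The gamma-activated letters TTCNNNGAA, found in 7.02% of promoters, were present in Ccl17, Ccr6 and Cxcl14.

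Among the neutrophil-attracting CXC ligands, Cxcl1 and Cxcl2 act on Cxcr2 and were the members at a mean of 1 TPM or more in some strain. Cxcl1 ranged from 8.33 to 42.61 TPM in NOD (median 16.6) and from 0.14 to 35.64 TPM elsewhere (median 4.96). Only 2 NOD libraries lay above AJ_30, the highest of the others. Counts of Cxcl1 were 184 to 766 in AJ_25 to AJ_32 and 113 to 238 in AJ_59 to AJ_65. NOD exceeded the other strains by 1.79 on the log2 scale (SE 0.28, adjusted p = 4.68e-08, edgeR). Cxcl2 ranged from 4.11 to 49.51 TPM in NOD and reached 38.93 TPM in AJ_30, with a log2 fold change of 1.68 (SE 0.28, adjusted p = 1.45e-07). Neither was selective for NOD. Cxcl5, Cxcl3 and Cxcl15 passed neither filter, and their highest strain means were 0.357, 0.0875 and 0.077 TPM. Single libraries were higher for Cxcl5, at 3.35 TPM in B6_24 and 1.01 TPM in NZO_90.

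Both genes carry the NF-kappaB letters GGGNNTTTCC at 2 places within 100 bases of the start, where 1.41% of all promoters held them at least once in 250 bases. The other members with a match were Ccl9, Ccl20, Ccr3 and Cxcl3. The stretches are shown because each holds 2 matches close together, with the letters of each match in capitals (Cxcl1 at chr5:90891121-90891218 and Cxcl2 at chr5:90903767-90903865, plus strand, RefSeq GRCm38.p6):
Cxcl1: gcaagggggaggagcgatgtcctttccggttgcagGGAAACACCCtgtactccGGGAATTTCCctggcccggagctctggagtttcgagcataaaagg
Cxcl2: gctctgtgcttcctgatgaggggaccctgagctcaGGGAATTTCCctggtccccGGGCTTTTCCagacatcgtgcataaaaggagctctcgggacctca
In Cxcl1 the first match lies on the opposite strand. Between the end of each match and the start lie 79 and 61 bases in Cxcl1 and 87 and 68 bases in Cxcl2.

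Lymphoid homing ligands guide lymphocytes and dendritic cells into lymphoid tissue: Ccl19 and the Ccl21 copies through Ccr7, Cxcl13 through Cxcr5 and Cxcl12 through Cxcr4. All 3 tested members were higher in NOD, with a median log2 fold change of 4.19. Ccl19 ranged from 7.98 to 390.02 TPM in NOD (median 119) and from 0 to 30.75 TPM elsewhere (median 1.57). It lay above NZO_90, the highest of the others, in 7 of 10 NOD libraries. The log2 fold change was 5.35 (SE 0.26, adjusted p = 2.49e-32, edgeR), and Ccl19 was selective for NOD, with a log2 difference of 2.64 from NZO (SE 0.58, adjusted p = 9.69e-05). NZO had the next highest mean, 18.9 TPM ± 8.75 (SD, n = 4).

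Cxcl12 ranged from 4.14 to 68.3 TPM in NOD (median 18.9) and from 0.79 to 18.58 TPM elsewhere (median 2.22). The log2 fold change was 2.39 (SE 0.18, adjusted p = 8.26e-21, edgeR), and the groups overlapped, with 5 NOD libraries above PWK_68 and 5 below it. Its smallest difference from another strain was 0.85 on the log2 scale (SE 0.36, adjusted p = 0.0355 against PWK). The call of Cxcl12 as selective was lost without any one of PWK_67, PWK_69, PWK_75, NOD_97, NOD_99 and NOD_100, where that difference was 0.64 to 0.78. Cxcl13, which organizes B cell follicles, ranged from 0.44 to 92.5 TPM in NOD (median 12.9) and reached 17.86 TPM in PWK_68. Its log2 fold change was 4.19 (SE 0.45, adjusted p = 9.58e-14), and 3.35 without the libraries that went against their sex label. Cxcl13 was not selective for NOD.

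Ccl21 departed from the rest, because its highest strain mean lay in PWK. Ccl21a, a wider-filter member, ranged from 0.29 to 140.35 TPM in NOD (median 16.2) and was higher there than the mean of the other strains (log2 fold change 4.77, SE 0.55, adjusted p = 1.85e-12, edgeR). Outside NOD it was at 0 counts in 44 of 81 libraries but stood at 90.72 TPM in PWK_68, 60.27 in PWK_66, 39.96 in 129_81, 39.18 in 129_85 and 17.86 in NZO_86. The other 3 PWK libraries lay at 0 to 1.16 TPM. In a single strain the level therefore ran from undetected to higher than in 9 of the 10 NOD libraries.

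The 2 entries named Ccl21b are near-identical copies of Ccl21a on chromosome 4, so how the counts divide between them is uncertain. One entry, Gm21541 by its current symbol, is at 41903610 to 41904743 and the other at 42255767 to 42256432 (GRCm38, plus strand). Over 402 coding bases each differed from Ccl21a at 2, T84A and C194T, with Ccl21a named first and positions counted from 1 at the start codon, and did not differ from each other (GENCODE M21 transcripts). Bases 69 to 209 are shown because they hold both differences, in capitals, and the line for Ccl21b holds for both of its entries:
Ccl21a: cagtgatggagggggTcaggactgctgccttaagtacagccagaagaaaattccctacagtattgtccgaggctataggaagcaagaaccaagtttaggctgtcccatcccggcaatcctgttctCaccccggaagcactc
Ccl21b: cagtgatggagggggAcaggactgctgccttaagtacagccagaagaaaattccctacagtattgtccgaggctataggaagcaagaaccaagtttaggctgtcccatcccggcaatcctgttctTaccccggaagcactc
Counts on the Gm21541 entry were at 86.15 TPM in PWK_66 and 108.29 TPM in PWK_68, and at 0 in all 10 NOD libraries. The other Ccl21b entry was at 6.92 and 17.49 TPM in the same PWK libraries and also at 0 in NOD. Its values equalled those of a further copy, Gm10591, in all 91 libraries. A further copy with the same differences, Gm13304, was at 0 to 8.46 TPM in NOD and at 0 in PWK.

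**Figure D2:**
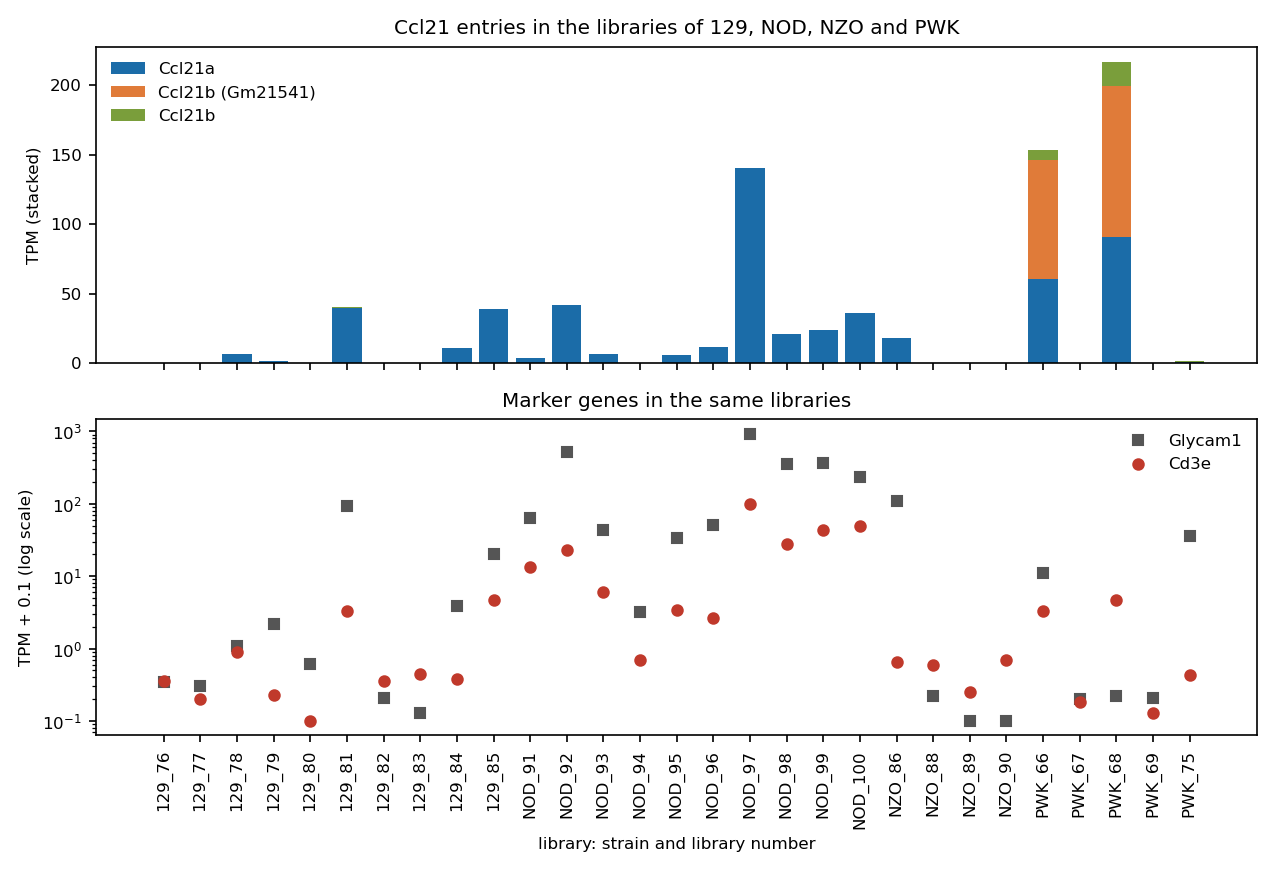
Stacked TPM of the Ccl21 entries (top) and TPM + 0.1, on a log axis, of the high endothelial marker Glycam1 and the T cell marker Cd3e (bottom) in each library of 129, NOD, NZO and PWK (horizontal axis). PWK_66 and PWK_68 hold nearly all of the counts on the Gm21541 entry, at 86.15 and 108.29 TPM, while NOD libraries hold Ccl21a.

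Markers did not move with Ccl21 in the same way in every library. Glycam1, made by high endothelial venules, was at 3.12 to 932.71 TPM in NOD, 93.09 TPM in 129_81 and 110.61 TPM in NZO_86, where Ccl21a was also high. In PWK it was at 11.1 TPM in PWK_66 and 0.12 TPM in PWK_68, but 35.94 TPM in PWK_75, where Ccl21a was at 1.16 TPM. Cd3e, a T cell marker, was at 4.61 TPM in PWK_68, the highest outside NOD. Their part in the Ccl21 values was not tested.

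The other CXC, XC and CX3C ligands comprise Cxcl14, Cxcl16, Cxcl17, Xcl1 and Cx3cl1. Cxcl16, a membrane-bound ligand of Cxcr6, was selective for NOD and ranged there from 6.11 to 90.58 TPM (median 33.5), against 1.83 to 21.76 TPM elsewhere (median 4.59). NOD_94 fell among the other strains, while 6 NOD libraries lay above NZO_90. Its log2 fold change was 2.58 (SE 0.12, adjusted p = 3.35e-33, edgeR), the smallest adjusted p of any member. Xcl1, which recruits cross-presenting dendritic cells through Xcr1, ranged from 0.78 to 47.24 TPM in NOD (median 16.3) and was at 0 counts in 42 of the 81 other libraries. NZO_90 was again the highest of the others, at 7.42 TPM, above the lowest NOD libraries. Cxcl14, a chemokine of epithelia, had means of 2.39 TPM ± 1.60 in NOD and 0.362 TPM in B6 (log2 fold change in NOD 1.43, SE 0.24). It was not selective, since NOD and PWK differed by 0.11 (SE 0.43, adjusted p = 0.846, edgeR).

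Cx3cl1, a membrane-bound ligand of Cx3cr1 that beta cells are known to make, went the other way and was lower in NOD. It was present in every library, from 1.76 TPM in CAST to 20.72 TPM in 129_77. The strain means were 15.6 TPM ± 3.01 in 129 (SD, n = 10), 14.5 ± 2.56 in AJ (n = 14), 8.90 ± 1.83 in WSB (n = 16), 7.61 ± 1.86 in B6 (n = 18), 7.34 ± 0.986 in NZO (n = 4), 6.84 ± 2.18 in PWK (n = 5), 6.68 ± 2.72 in NOD (n = 10) and 4.20 ± 1.53 in CAST (n = 14). Neighbours 129 and AJ did not differ beyond their spread (log2 difference of Cx3cl1 −0.01, SE 0.10, adjusted p = 0.946, edgeR). In NOD the log2 fold change was −0.42 (SE 0.08, adjusted p = 8.93e-06), with the NOD libraries at 3.28 to 10.24 TPM inside the range of the others. CAST was below each other strain, beside 3.51% of all genes, with a smallest log2 difference of 0.44 (adjusted p = 5.56e-05 against NOD). Beta cell markers also differed in this contrast: all 5 were lower in NOD, with a median log2 fold change of −0.44, and their part in the Cx3cl1 difference was not tested.

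The remaining CC ligands hold both strain-low members and Ccl22. Ccl22, which attracts regulatory T cells through Ccr4, was selective for NOD, at 0.63 to 12.74 TPM (median 4.58) against 0 to 3.05 TPM elsewhere (median 0.08). It lay above PWK_68, the highest of the others, in 6 of 10 NOD libraries, and the log2 fold change was 4.74 (SE 0.40, adjusted p = 1e-18, edgeR). Ccl17, the other ligand of Ccr4, ranged from 0.09 to 1.24 TPM in NOD, below the 2.77 TPM of AJ_29.

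Ccl27a, a skin-associated ligand of Ccr10, did not differ in NOD (log2 fold change −0.05, SE 0.12, adjusted p = 0.729, edgeR) and was singled out after its values were seen. It was at 0.3 to 1.27 TPM in the 14 AJ libraries, with a mean of 0.804 ± 0.296 (SD). In the 77 others it ranged upward from 3.25 TPM, with means from 6.95 TPM in NZO to 16.2 TPM ± 3.65 in 129. No AJ library reached the level of any other library, a pattern shown by 0.0434% of genes for AJ. Its smallest log2 difference from another strain was 2.96 (SE 0.20, adjusted p = 4.57e-23 against NZO), beside 2.29% of all genes lower in AJ than in each other strain. Above AJ, the next strains in order were NZO and NOD, which did not differ beyond their spread (log2 difference of Ccl27a 0.39, NOD minus NZO, SE 0.21, adjusted p = 0.119, edgeR). CAST, the next, was above NOD by 0.70 on the log2 scale (SE 0.14, adjusted p = 1.37e-05). Among 129, B6, CAST, PWK and WSB, only 129 and CAST differed (0.36, SE 0.14, adjusted p = 0.0218). The gene lies on chromosome 4 at 41769467 to 41774247 (GRCm38, minus strand) within a region of copied chemokine genes. Its copy Ccl27b was at 0.49 TPM or less in every library, and the split of reads between both names is uncertain.

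Ccl28, a mucosal ligand of Ccr10 and Ccr3, was lowest in WSB and was likewise chosen after its values were seen. It ranged from 0.04 to 0.69 TPM in the 16 WSB libraries, with a mean of 0.307 ± 0.209 (SD). The next strain was 129, at 0.64 to 2.24 TPM, which overlapped it, and NZO was the highest, with a mean of 10.2 TPM ± 2.56 (n = 4). Ccl28 was lower in WSB than in each other strain, with a smallest log2 difference of 1.58 (SE 0.24, adjusted p = 2.6e-08 against 129, edgeR), beside 2.21% of all genes. NOD, at 2.09 TPM ± 0.771, was below the mean of the other strains (log2 fold change −0.63, SE 0.19, adjusted p = 0.00238). AJ, B6, CAST and PWK had Ccl28 means from 5.20 to 6.52 TPM, and no pair among these 4 passed the test (lowest adjusted p = 0.0636, B6 and PWK).

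Ccl25, which draws thymocytes and gut lymphocytes through Ccr9, was the only member selective for CAST, beside 2.49% of all genes. It had a mean of 4.38 TPM ± 1.25 in CAST (SD, n = 14, from 2.52 to 7.01 TPM) and of 3.15 ± 0.730 in 129 (n = 10), the nearest strain, with a log2 difference of 0.57 (SE 0.17, adjusted p = 0.00292, edgeR). AJ_32, at 7.08 TPM, lay above every CAST library. In NOD Ccl25 was lower than in the mean of the other strains (1.06 to 3.07 TPM, log2 fold change −0.56, SE 0.15, adjusted p = 0.000612), while its receptor Ccr9 was higher.

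**Figure D3:**
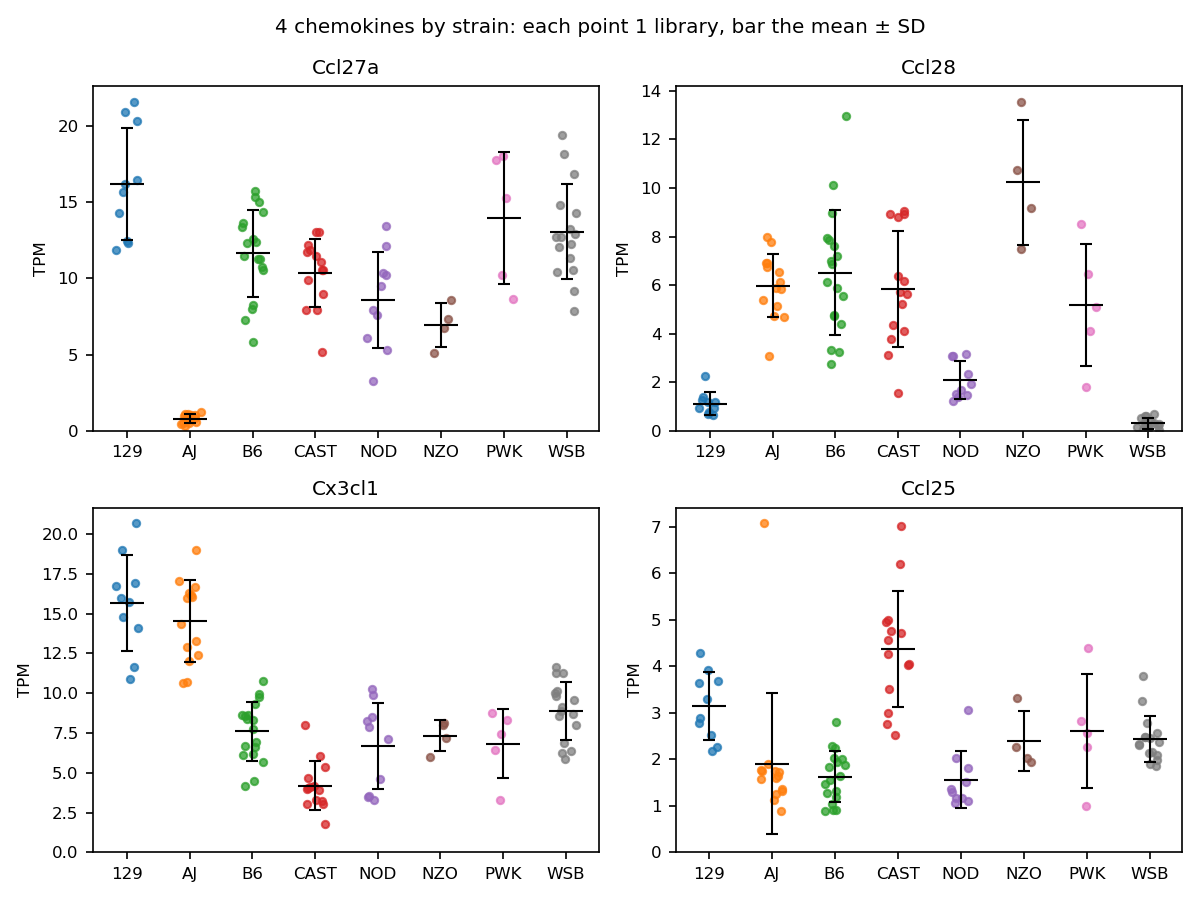
TPM of 4 chemokines in each library (points) by strain (horizontal axis), with bars for the mean ± SD. Ccl27a is near 0 in AJ alone (mean 0.804 TPM), Ccl28 is lowest in WSB (mean 0.307 TPM), and Cx3cl1 is highest in 129 and AJ (means 15.6 and 14.5 TPM).

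CC receptors were low outside NOD. With the study's filter, Ccr1, Ccr2, Ccr7 and Ccr9 were higher in NOD and selective for it, and Ccr10 was higher without being selective. Ccr7, which brings T cells and dendritic cells toward Ccl19 and Ccl21, ranged from 1.79 to 87.88 TPM in NOD (median 19.7) and from 0.02 to 15.82 TPM elsewhere (median 0.17). PWK_68 was the highest of the others, and 6 NOD libraries lay above it. For Ccr7 the log2 fold change was 5.50 (SE 0.40, adjusted p = 3.8e-22, edgeR), and 4.89 without the libraries that went against their sex label.

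Ccr2, the receptor of Ccl2 on monocytes, ranged from 0.36 to 20.17 TPM in NOD (median 5.5) and from 0.01 to 4.81 TPM elsewhere (median 0.28), with a log2 fold change of 4.03 (SE 0.25, adjusted p = 7.9e-26, edgeR). Its log2 difference from NZO, the nearest strain, was 1.37 (SE 0.54, adjusted p = 0.032). The call of Ccr2 as selective was lost without any one of NZO_86, NZO_88, NZO_89, NOD_97 and NOD_100, where that difference was 1.11 to 1.18, and it was 2.28 without NZO_90. NZO_90 was the highest of the others, and 5 NOD libraries lay above it.

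Ccr1, a receptor of monocytes and neutrophils, ranged from 0.2 to 9.49 TPM in NOD (median 2.13) and from 0 to 0.33 TPM elsewhere (log2 fold change 5.43, SE 0.26, adjusted p = 1.49e-32, edgeR). Ccr9 ranged from 0.14 to 12.09 TPM in NOD (median 1.34) and from 0 to 0.27 TPM elsewhere (log2 fold change 4.53, SE 0.24, adjusted p = 1.56e-30). For both, 8 of 10 NOD libraries lay above every other library. Without the libraries that went against their sex label the log2 fold changes were 4.83 and 3.65. Ccr10, the receptor of Ccl27a and Ccl28, had the smallest of these fold changes, with 0.19 to 1.13 TPM in NOD and 0.1 to 0.93 TPM elsewhere (log2 fold change 0.40, SE 0.16, adjusted p = 0.0242).

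Ccr6, Ccr8 and Ccr4 lay outside the study's filter. Ccr8, a receptor of regulatory T cells, was the only member of all 61 with every NOD library above every other library, a pattern shown by 0.0558% of genes for NOD: 0.26 to 4.37 TPM in NOD against at most 0.2 TPM elsewhere, in B6_58. The margin between 0.26 and 0.2 TPM is small, no library outside NOD held more than 6 counts, and the gene entered the genes behind that share through NOD. Ccr6, found on B cells and Th17 cells, ranged from 0.26 to 45.01 TPM in NOD and reached 2.35 TPM in 129_85 (log2 fold change 5.69, SE 0.38, wider filter). For Ccr4, a Th2 and regulatory T cell receptor, the NOD libraries ranged from 0.02 to 2.06 TPM, and no library outside NOD held more than 5 counts. Ccr3, the eosinophil receptor, passed neither filter, at 0.09 TPM or less everywhere.

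The CXC, XC and CX3C receptors were led by Cxcr4, the receptor of Cxcl12 on most leukocytes. It ranged from 2.49 to 174.26 TPM in NOD (median 30.2) and from 0.83 to 14.67 TPM elsewhere (median 2.56). NOD_94 lay among the other strains and 6 NOD libraries lay above PWK_68, the highest of the others. For Cxcr4 the log2 fold change was 3.49 (SE 0.19, adjusted p = 2.55e-29, edgeR), and 2.75 without the libraries that went against their sex label. With the study's filter, Cxcr4, Cxcr6, Xcr1 and Cx3cr1 were the 4 receptors of this group that were higher in NOD, and each was selective for it.

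Cxcr6, the receptor of Cxcl16 on resident T cells, ranged from 0.12 to 15.35 TPM in NOD (median 2.47) and from 0 to 0.41 TPM elsewhere (log2 fold change 5.05, SE 0.28, adjusted p = 1.12e-28, edgeR). It was 4.15 without the libraries that went against their sex label. Xcr1, the receptor of Xcl1 on cross-presenting dendritic cells, ranged from 0.33 to 4.01 TPM in NOD (median 1.6) and from 0.04 to 0.5 TPM elsewhere (log2 fold change 2.83, SE 0.16, adjusted p = 3.49e-29). Cx3cr1, the receptor of Cx3cl1 on macrophages, ranged from 1.24 to 23.48 TPM in NOD (median 5.42) and from 0.26 to 5.09 TPM elsewhere (log2 fold change 2.42, SE 0.18, adjusted p = 5.62e-21). All 3 overlapped the other strains through their lowest NOD libraries, with 7, 8 and 5 NOD libraries above the highest of the others. The receptor Cx3cr1 and its ligand Cx3cl1 thus differed in opposite directions in NOD.

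Cxcr3 and Cxcr5 were tested with the wider filter. Cxcr3, the receptor of Cxcl9 and Cxcl10 on effector T cells, ranged from 0.14 to 25.78 TPM in NOD (median 4.77) and reached 0.85 TPM in 129_85 (log2 fold change 5.99, SE 0.34, adjusted p = 1.45e-28, edgeR). Cxcr5, the receptor of Cxcl13 on B cells, ranged from 0.09 to 31.99 TPM in NOD (median 4.36) and reached 1.46 TPM in PWK_68 (log2 fold change 5.48, SE 0.43, adjusted p = 3.8e-20). Both followed their ligands in direction. Cxcr2, the receptor of Cxcl1 and Cxcl2 on neutrophils, did not pass the test in NOD, with 0.14 to 1.88 TPM there and 0.12 to 0.86 TPM elsewhere (log2 fold change 0.34, SE 0.17, adjusted p = 0.0671). Cxcr1 was at 0 counts in every library, as was the ligand Ccl26.

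Of the 4 atypical receptors, Ackr1 and Ackr2 were higher in NOD and Ackr3 and Ackr4 did not pass the test. Ackr1, the Duffy antigen receptor of venules and red cells, was selective for NOD and ranged from 1.36 to 20.28 TPM there (median 5.8) against 0 to 4.76 TPM elsewhere (median 0.34). NZO_90 was the highest of the others, and 5 NOD libraries lay above it (log2 fold change 4.01, SE 0.28, adjusted p = 6.06e-23, edgeR). Ackr2, a scavenger of inflammatory CC chemokines, had means of 1.21 TPM ± 1.18 in NOD and 0.0878 TPM in B6 (log2 fold change 1.97, SE 0.20). Ackr3, a scavenger of Cxcl12, separated the strains differently. It was highest in WSB at 6.12 TPM ± 1.94 (n = 16) and lowest in B6 at 1.91 ± 0.715 (n = 18) and 129 at 2.07 ± 0.643 (n = 10), which did not differ from each other (log2 difference −0.14, SE 0.17, adjusted p = 0.55). The log2 difference of Ackr3 between B6 and WSB was −1.80 (SE 0.15, adjusted p = 2.08e-18, edgeR). In NOD Ackr3 was near the mean of the other strains (log2 fold change 0.04, SE 0.15, adjusted p = 0.805), and its sign changed on 3 alternatives. Ackr4, a scavenger of Ccl19 and Ccl21, was at 0.96 TPM or less in every library, highest in PWK (0.378 TPM).

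**Figure D4:**
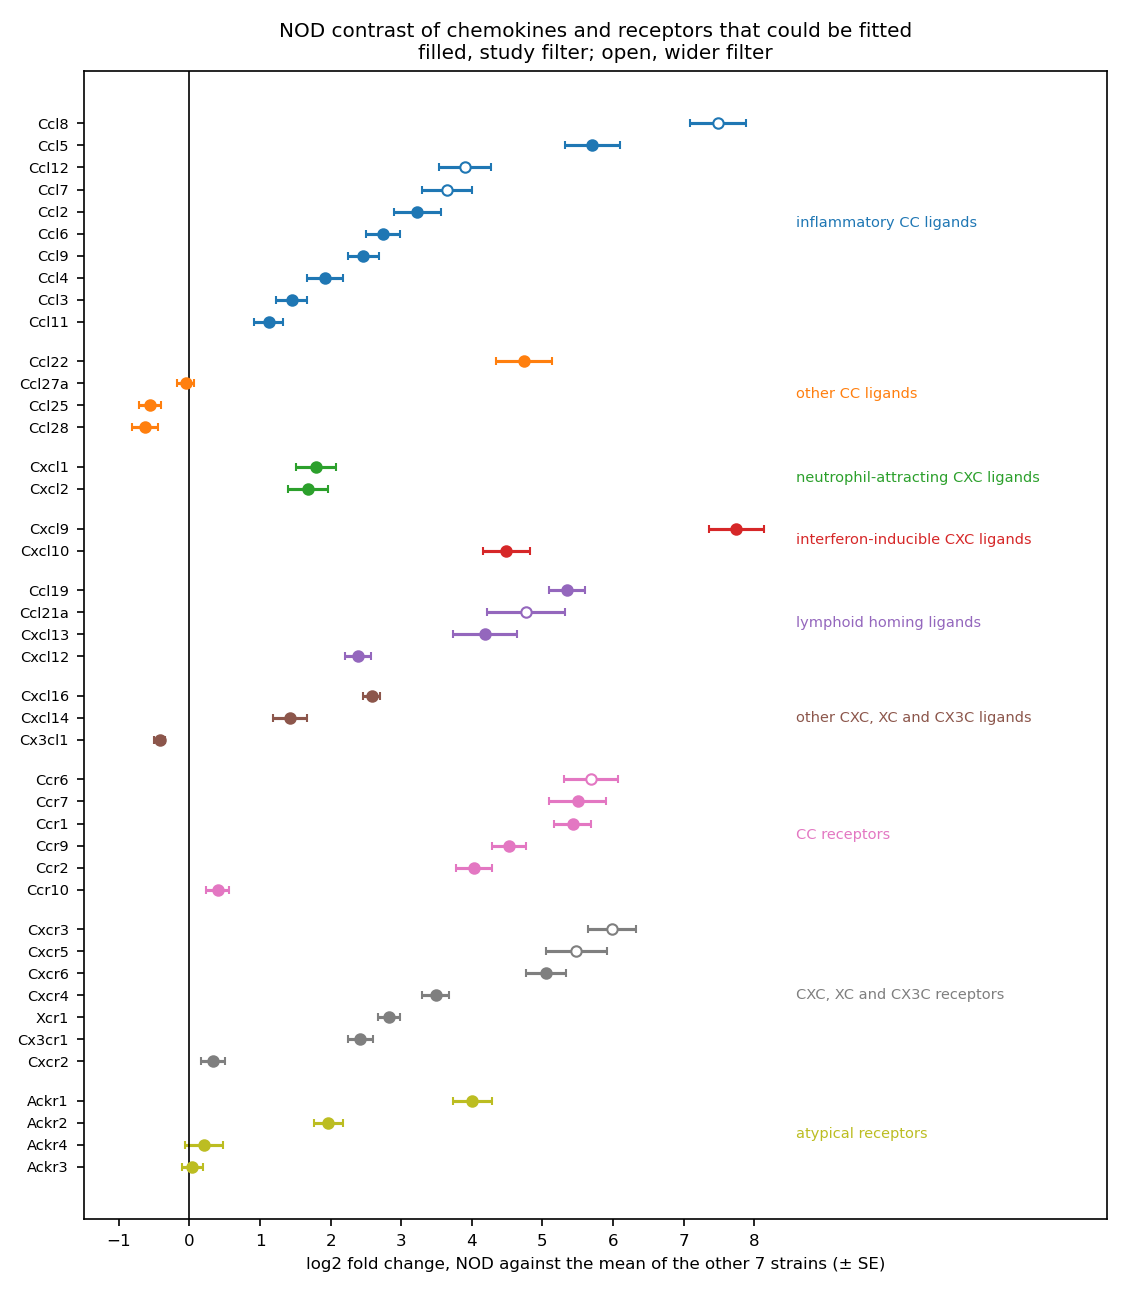
Log2 fold change of NOD against the mean of the other 7 strains (horizontal axis, ± SE) for 42 of the 47 members that could be fitted (vertical axis, by role), filled for the study's filter and open for the wider one, without the 4 that met the wider one only through NOD. Ccl28, Ccl25 and Cx3cl1 lie below 0, and Cxcl9 is the highest of the filled points at 7.75.

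Several members are encoded side by side. The 5 genes at chromosome 11, 83525778 to 83664683 (GRCm38), Ccl5, Ccl9, Ccl6, Ccl3 and Ccl4, were all tested and all higher in NOD, with log2 fold changes from 1.45 (Ccl3) to 5.71 (Ccl5). The receptor genes Ccr9, Cxcr6, Xcr1, Ccr1 and Ccr2 lie near one another on chromosome 9 and were higher in NOD, from 2.83 (Xcr1) to 5.43 (Ccr1). Neighbours did not always share a direction. On chromosome 8, Cx3cl1 was lower in NOD, whereas its neighbour Ccl22 was higher. On chromosome 4, Ccl27a (from 41769467) and Ccl19 (from 42754525) lie further apart, with other members between them. Ccl27a did not pass the test, while Ccl19 had a log2 fold change of 5.35.

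The NOD libraries differed widely among themselves. Of the 29 members higher in NOD, 20 had their lowest NOD level in NOD_94, and 17 had their highest in NOD_97 and 11 in NOD_100. For none of the 29 did every NOD library lie above every other library. The ratio of the highest to the lowest NOD library was 210 for Cxcl13 and 47.4 for Ccr1 but 4.08 for Ccl3 and 5.49 for Ccl4. It was 277 for Ccl8 and 484 for Ccl21a, which passed the wider filter only.

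**Figure D5:**
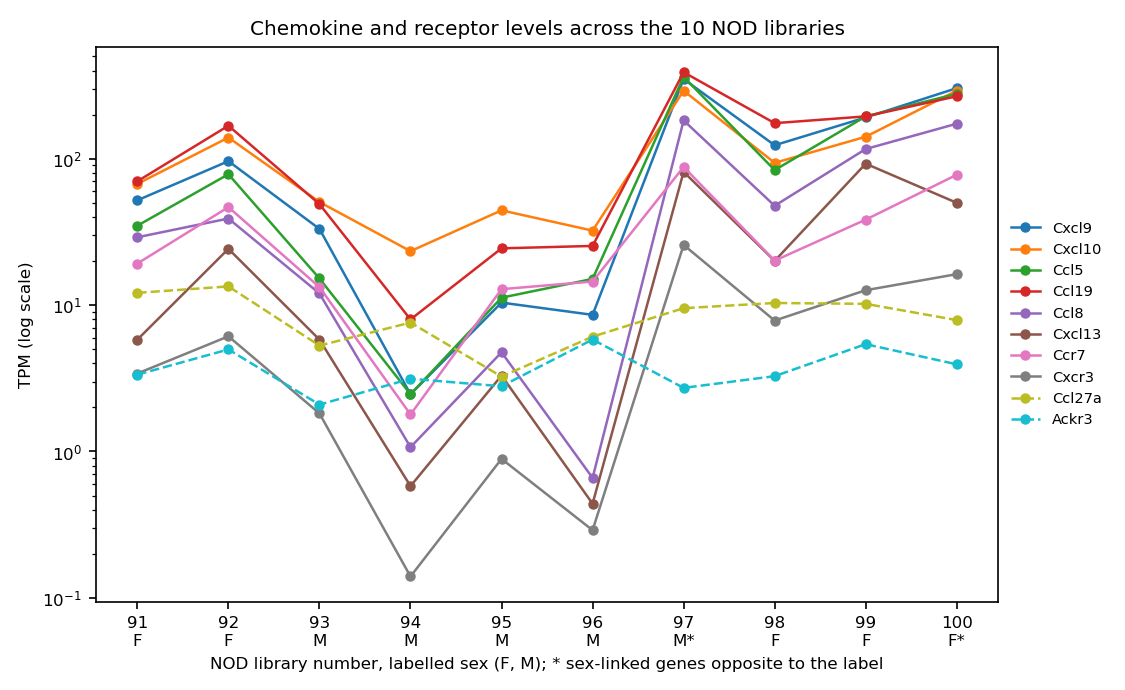
TPM on a log axis of selected members in each of the 10 NOD libraries (horizontal axis, with the labelled sex and an asterisk for the 2 libraries whose sex-linked genes go against it). NOD_94 is the lowest for most lines, and NOD_97 the highest, as for Cxcl9 at 2.46 and 350.16 TPM.

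Leukocyte markers also differed widely between the NOD libraries. The summed T cell markers (Cd3d, Cd3e, Cd3g, Cd4, Cd8a, Cd8b1 and Lck) were at 4.38 TPM in NOD_94 and 643 TPM in NOD_97, against 0.6 to 32.5 TPM in the other strains. The 5 B cell markers summed to 6.21 and 666 TPM in the same libraries and to 1.95 to 52.7 TPM in the other strains. The 7 macrophage markers summed to 50.9 and 2660 TPM, and to 26.7 to 238 TPM in the other strains, where NZO_90 was the highest. All tested markers of T cells (4 of 4), B cells (4 of 4), macrophages (7 of 7) and dendritic cells (4 of 4) were higher in NOD, with median log2 fold changes of 6.41, 5.01, 2.66 and 4.15. Not every member was lowest or highest where these markers were. Ccl4, Cxcl1 and Cxcl2 were lowest in NOD_98, where T cell markers summed to 173 TPM and macrophage markers to 737 TPM, and Ccl3 was lowest in NOD_91, with T cell markers at 83.6 TPM. Natural killer markers ranged from 0.13 to 35.5 TPM in NOD and from 0 to 2.41 TPM elsewhere, and neutrophil markers from 0 to 2.51 and from 0 to 10.5 TPM, with Ly6g at or near 0 throughout. The high endothelial markers ranged from 3.88 to 992 TPM in NOD and from 0.06 to 114 TPM elsewhere, and all 4 fibroblast markers were higher in NOD (median log2 fold change 2.17).

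Acinar markers were also higher in NOD (5 of 5, median log2 fold change 1.55), but within NOD they ran the other way. They summed to 162000 TPM in NOD_94 and 30300 TPM in NOD_97, and were highest, at 224000 TPM, in NOD_93. Of 5 stress genes of tissue handling, 3 were higher in NOD, with a median of 0.56, and of 3 alpha cell markers 2 were lower. Plasma cell markers were higher in 2 of 3, ductal markers in 3 of 5 with 1 lower, endothelial markers in 2 of 4 with 1 lower, and lymphatic markers in 1 of 3 with 2 lower. Their part in the levels of chemokines and receptors was not tested.

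Libraries outside NOD with high levels were few and recurred. NZO_90, the only male NZO library, was the highest library outside NOD for Cxcl9, Cxcl10, Ccl5, Ccl8, Ccl2, Ccl19, Cxcl16 and Ackr1 among others. PWK_68 held that place for Ccr7, Cxcr4, Cxcl12, Cxcl13, Cxcr5 and Ccl22. Library 129_85 held it for Cxcr3 and Ccr6. T cell markers summed to 32.5 TPM in both PWK_68 and 129_85 and to 7.49 TPM in NZO_90, whereas macrophage markers summed to 101, 135 and 238 TPM.

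The strains were also compared without NOD and within sets. When the fit was made without NOD, 35 of the 36 members differed among the remaining 7 strains, beside 94.9% of all genes, the exception being Cxcr2. Among 129, NOD, NZO and PWK, which share 1 range of library numbers, 35 of 36 differed, beside 81.6% of all genes, again without Cxcr2. Within AJ, B6, CAST and WSB, 32 of 36 members differed, with or without a covariate for library number. The covariate set numbers 1 to 32 against 34 to 65, and 86.6% of all genes differed with it and 84% without it.

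With the labels taken as they are, 1 of 36 members, Cx3cl1, passed the test between males and females over all strains, beside 4.01% of all genes, with a log2 difference of −0.22 in males (SE 0.05, adjusted p = 0.00262, edgeR). The call was lost on log2(TPM + 1), on log2(TPM + 0.1) and with the libraries of each sample summed, where 0.704, 0.822 and 0% of all genes were called. Its mean was 15.5 TPM ± 2.17 in AJ females and 13.5 ± 2.69 in AJ males (n = 7 each), and 4.98 ± 1.81 in CAST females (n = 6) and 3.62 ± 1.05 in CAST males (n = 8). In B6 the means were 7.68 ± 2.39 and 7.54 ± 1.29 TPM (n = 9 each). The libraries of the sexes overlapped in AJ, CAST and B6. Without the 12 libraries that went against their label, the log2 difference of Cx3cl1 was −0.30 (adjusted p = 1.53e-05). The remaining libraries then did not overlap in NOD, at 7.1 to 9.91 TPM in 4 females and 3.28 to 4.64 TPM in 4 males, or in 129, at 15.96 and 20.72 TPM in 2 females and 10.88 and 11.65 TPM in 2 males. In WSB they still overlapped, at 8.71 to 11.26 TPM in 7 females and 6.23 to 11.65 TPM in 5 males. Within NOD the fit on normalized counts gave a log2 difference of −0.45 (SE 0.15, adjusted p = 0.0266, edgeR). That is smaller than the gap in mean TPM, 8.45 in the 4 females and 3.73 in the 4 males.

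Within NOD, calls by sex differed with and without the libraries whose sex-linked genes went against their labels. With all 5 labelled females and 5 labelled males, no member of 36 differed between the sexes within NOD, beside 1.19% of all genes, and none differed in its sex difference from the other strains, beside 0.868% (edgeR's quasi-likelihood test). At an unadjusted p under 0.05 the counts were 5 and 6 members, beside 18.7 and 15.7% of all genes. For the second comparison DESeq2 called 0, beside 1.53% of all genes, limma-voom called 7, beside 5.28% of all genes, and limma on log2(TPM + 1) called 24, beside 61.3%. Without the 12 libraries, which left 4 NOD females and 4 NOD males, 18 of 36 members were lower in NOD males, beside 14.0% of all genes. The sex difference of 14 was then below that of the other strains, beside 11.6% of all genes. T cell and macrophage markers divided the same libraries, while acinar markers overlapped between the sexes. T cell markers summed to 83.6 to 283 TPM in the 4 females and 4.38 to 41 TPM in the 4 males, macrophage markers to 348 to 1740 and 50.9 to 229 TPM, and acinar markers to 20500 to 112000 and 95400 to 224000 TPM. Their part in the sex differences was not tested.

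Cxcl9 shows the effect. In the 4 remaining NOD females it ranged from 52.02 to 191.45 TPM (mean 116 ± 58.4, SD) and in the 4 males from 2.46 to 33.16 TPM (mean 13.6 ± 13.4), with no overlap. Its log2 difference was −2.01 (SE 0.65, adjusted p = 0.0184, edgeR). With the labels as given, the females reached 303.47 TPM and the males 350.16 TPM, and the log2 difference was −0.88 (adjusted p = 0.426). Cxcr4 ranged from 21.63 to 78.85 TPM in the 4 females and from 2.49 to 9.58 TPM in the 4 males (log2 difference −1.94, SE 0.34, adjusted p = 1.68e-05). Ccl19 ranged from 70.15 to 194.71 TPM and from 7.98 to 48.98 TPM (log2 difference −1.66, SE 0.44, adjusted p = 0.00324). Ccl3, Ccl4, Cxcl1 and Cxcl2 gave no such difference: their log2 differences were 0.47 (SE 0.53), 0.55 (SE 0.62), 0.60 (SE 0.67) and 0.29 (SE 0.64), all with adjusted p-values above 0.5.

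Other genes of the pathway were taken from lists set by their known function. Of 10 further genes of chemokine-like proteins and receptors, 8 were tested and all 8 were higher in NOD, with a median log2 fold change of 1.92. They include Cd74, the Mif receptor chain and invariant chain, at 145.47 to 5490.48 TPM in NOD against 40.11 to 764.15 TPM elsewhere (log2 fold change 3.49), and Gpr35, a receptor of leukocytes, with 5.16. Of 30 genes that signal from chemokine receptors, 23 were higher and 1 lower, with a median of 1.08. The highest fold change was that of Fgr, a myeloid Src-family kinase (5.29), and the lower gene was Grk3, a receptor kinase (−0.63). The ubiquitous G-protein subunit Gnai2, at 100.99 to 415.39 TPM in NOD, had a log2 fold change of 0.05 and was not called (adjusted p = 0.471, edgeR).

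Lists of interferon gamma and NF-kappaB genes, which hold targets and inhibitors of these pathways as well as their activators, were also examined. All 15 tested genes of the interferon gamma response were higher in NOD, with a median log2 fold change of 2.30. Among them Irf1, an interferon-induced factor that binds such elements, had 0.90 (adjusted p = 0.000595, edgeR), and Ciita, which drives MHC class II genes, had 4.80. Ifng itself, outside the study's filter, ranged from 0.14 to 13.7 TPM in NOD and from 0 to 1.01 TPM elsewhere, with NZO_90 again the highest of the others. Of 15 NF-kappaB and TNF family genes, 13 were higher and none lower, with a median of 1.94. The receptors Ltbr (0.01, adjusted p = 0.909, edgeR) and Tnfrsf1a (−0.03, adjusted p = 0.746) did not pass. Those that were higher run from Rela (0.30, adjusted p = 0.041) to Ltb (5.52), the lymphotoxin chain that supports lymphoid tissue.

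Ccl1, Ccl20 and Cxcl17 were below 1 TPM as a mean in every strain. Counts of 3 correspond to 0.0852 to 0.177 CPM (counts scaled to library size) in the deepest and shallowest library, so a lower level could not be told from 0 at these depths. The bound covers counting error only.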

How the data were processed

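Per the labels and the study's methods, the authors quantified reads with RSEM on mm10 with the GENCODE vM18 annotation. They deposited 1 table per library, with expected counts, which are not normalized, and TPM. The RSEM version is not given in the sources used here. The 91 libraries were grouped by the strain and sex labels, and identifiers were matched to GENCODE M21 for symbols and coordinates (54079 matched, 67 not). Expected counts were rounded and tested with edgeR 4.0.16 (R 4.3.3), with upper-quartile normalization, strain and sex as terms of 1 model, and Benjamini-Hochberg adjustment over all genes of a fit at 0.05. The NOD sex difference was fitted on 6 strains, NZO and PWK being left out for having under 5 libraries of a sex. Tests covered the protein-coding genes of the autosomes and X. TPM was used for levels. Depth is given with the results, and 3 counts are the smallest level told from 0.

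Members with a mean of at least 1 TPM in some strain were named with values, and those selective for a strain were described by their lowest, median and highest library. A single member is part of the family counts and is not reported here by itself. Genes of other lists were named as examples. The members and lists were chosen with earlier results of these data known, and the comparisons of the strains in which Ccl27a and Ccl28 are low were added after their values were seen. Alternatives were TMM normalization, median-ratio size factors, filterByExpr, no filter beyond a non-zero total, limma-voom and limma on log2(TPM + 1) or log2(TPM + 0.1) (limma 3.58.1), DESeq2 1.42.0, no sex covariate, sums of the libraries of each sample, leaving out single NOD, NZO or PWK libraries, and leaving out the 12 libraries that went against their sex label. The tests were first run on simulated data.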

Additional observations from a re-analysis of the deposited data

Results flagged for a closer look

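In 29 of 176 groups of 4 to 10 libraries, 1 library of a strain lay further from the others than Dixon's 95% limit, where chance gives about 5% of groups. Members share these libraries, so the groups are not independent, and no NOD group was among them. NZO_90 accounted for 9 of these, at 19.76 TPM for Ccl3, 6.21 for Ccl8, 21.76 for Cxcl16, 34.28 for Ccl4, 7.42 for Xcl1, 57.63 for Cxcl10, 4.76 for Ackr1, 4.81 for Ccr2 and 5.09 for Cx3cr1. The next NZO library was at 0.11 TPM for Ccl8 and 0.68 TPM for Ackr1. Library 129_85 accounted for 10, at 1.9 TPM for Ccl8, 4.8 for Cxcl13, 1.41 for Xcl1, 4.36 for Cxcl9, 1.37 for Ccl2, 11.77 for Ccr7, 2.35 for Ccr6, 1.4 for Cxcr5, 0.85 for Cxcr3 and 10.26 for Cxcl12.

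In PWK, PWK_68 stood apart for Xcl1 (1.23 TPM), Ccl22 (3.05 TPM) and Cxcr5 (1.46 TPM), PWK_75 for Ccl8 (3.14 TPM), PWK_66 for Ccr8 (0.04 TPM, the others at 0) and PWK_69 for Cx3cr1, where it was the low one (1.15 TPM). In the remaining groups, NZO_86 stood apart for Ccl21a (17.86 TPM), 129_81 for Ccl22 (1.84 TPM) and Ccl21b (0.19 TPM, the others at 0), and 129_84 for the Gm21541 entry of Ccl21b (0.19 TPM, the others at 0).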

How the results depend on the processing

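Under all 21 alternatives 3 members were lower in NOD. The number higher in NOD, 29, ran from 28 to 40, the 40 with filterByExpr, beside 5932 of 16085 genes. Without a filter on low counts it was 47, beside 33.2% of all genes. Both settings test members outside the study's filter, also ones whose counts lie mainly in NOD libraries. The 40 and 47 are therefore no further support. The setting without a filter gave 57 members for the strain effect, beside 88.4%, and 55 for that among 129, NOD, NZO and PWK, beside 70.3%. It gave 28 selective for NOD, beside 9.98%, since more members were then tested. Leaving out single libraries gave 28 to 30 members higher in NOD, 3 lower, 16 to 21 selective for NOD, 35 to 36 for the strain effect, 35 in each case without NOD and 34 to 35 among the 4 strains. With the libraries of each sample summed, 30 members differed without NOD, beside 73.2% of all genes, and 31 among the 4 strains, beside 53.9%. Without the libraries that went against their sex label, 31 differed among the 4 strains, beside 71.7%. The sex effect, 1 member, was 4 with limma-voom, beside 4.07% of all genes, and 0 on log2(TPM + 1), on log2(TPM + 0.1) and with sums of the libraries of each sample. The number of members whose NOD sex difference departed from that of the other strains, 0, was 7 with limma-voom, 24 on log2(TPM + 1), 22 on log2(TPM + 0.1), beside 61.5% of all genes, and 14 without the libraries that went against their sex label. On the log2(TPM + 1) and log2(TPM + 0.1) scales the median of all genes in that comparison was −0.46 and −0.55. The cause was not tested for either. The log2 fold change of Ackr3 turned to −0.02 on log2(TPM + 1), −0.00088 on log2(TPM + 0.1) and −0.10 without NOD replicate 6 (up to 0.13 without other replicates), and that of Ccl27a to 0.03 on log2(TPM + 0.1), 0.09 without the libraries that went against their sex label and 0.01 without NOD replicate 5 (down to −0.16 without other replicates). Neither was called in any of these. Fold changes on log2(TPM + 1) are compressed for low genes, as for Ccr1 (1.63 against 5.43). Levels near 3 counts limit Ccl1, Ccl20, Cxcl3, Cxcl15 and Cxcl17, and the labels do not say which mouse or wave a library came from.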
